A study of Mus musculus with 33 samples.

Results

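The difference between lung and liver in the response to birth at 2 h was measured on 12 of the 33 arrays of the series, 3 in each of 4 groups. The groups were whole lung at day 21 of gestation (F21), whole lung 2 h after birth into room air, whole liver at F21 and whole liver at 2 h. The change from F21 to 2 h was taken in each organ on the log2 scale of the array signal, with signals under the floor of 10 set to 10, and the change in liver was subtracted from the change in lung. A positive value therefore means that a transcript rose more, or fell less, in lung. The mice were of C57 black background with no allele or agent named. The labels write the strain as C57/Black for fetal lung, BL/57 for newborn lung and C57/BL for liver. The labels give room air for the lungs, and the study's methods give it for the livers. The sexes, litters and numbers of animals per array are not given in the labels, so the p-values below measure the spread between arrays, which may be partly technical. In whole organs, fewer cells of a type and less RNA per cell cannot be told apart.

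At birth the lung is cleared of fluid, filled with air and perfused with the whole output of the right heart. The liver loses the placental supply of glucose and turns to making glucose and burning fat, and in late gestation it is still a blood-forming organ. Immediate early genes are transcribed within minutes of a stimulus without new protein synthesis, and many of them encode transcription factors. A comparison of organs from the same stage shows where their changes at birth differed. The difference alone does not tell which organ changed, so the change in each organ is given beside it. An array effect confined to a group would also enter the difference.

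The arrays carried the RNA their labels name. Sftpc, the surfactant protein C of alveolar type 2 cells, had signals of 17961 to 54367 in the 6 lung arrays and 35.6 to 88.8 in the 6 liver arrays, and Alb, the albumin of hepatocytes, had 44095 to 56445 in liver and 13.6 to 88.5 in lung. Within a group, Pearson's r between arrays across probe sets was 0.869 to 0.934. The lung arrays of 2 h stood apart at the top of the scale. Their highest signal was 17961 to 19210, against 43575 to 54367 in F21 lung and 44095 to 56445 in liver, and their bacterial spike BioB-3 read 75.9 to 110.7 against 163.2 to 529.4 elsewhere. Another spike, BioC-3, read 289.1 to 353.7 in them and overlapped both F21 lung (346.9 to 894.5) and liver (253.9 to 338.1). In the brightest probe sets, with a mean signal of 395 or more, the median change was -0.25 in lung and 0.00 in liver. Results on bright transcripts are therefore given with quantile normalization, which gives all arrays the same distribution of signals, beside them. The 3' to 5' signal ratio of the Gapdh control was 0.77 to 1.03 in lung and 1.34 to 1.86 in liver, and overlapped between the ages of lung. The same ratio of the actin control was 1.23 to 1.37 in F21 lung and 1.52 to 1.96 at 2 h, and the 18S control read 642.9 to 1511.2 and 293.6 to 445.0, so both moved with the lung groups without overlap. In liver the 18S control read 306.7 to 522.9, so for 18S it was the F21 lungs that stood apart. The part of the actin and 18S controls in the lung changes was not tested.

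Of 6436 probe sets tested, 124 (1.93%) differed between organs in their change at birth (limma, Benjamini-Hochberg adjusted p under 0.05). The change was more positive in lung for 41 and more negative for 83. Without adjustment 1117 had a p under 0.05, where 322 would be expected by chance. With 1 probe set per gene, 33 of 5003 genes (0.66%) were more positive in lung and 55 (1.1%) were more negative. In lung alone 150 genes (3%) rose and 280 (5.6%) fell at 2 h, and in liver 17 (0.34%) rose and 9 (0.18%) fell. In most of the 124 probe sets the lung change alone passed. In 28 the lung rose and in 67 the lung fell while the liver change did not pass, in 14 the liver rose or fell while the lung change did not pass, and in 15 neither change passed alone. The 2 estimates had opposite signs in 94 of the 124, and the lung change was the larger in size in 99. Across all tested probe sets Pearson's r between the lung change and the liver change was 0.0612, a value over probe sets, which are not independent replicates.

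**Figure D1:**
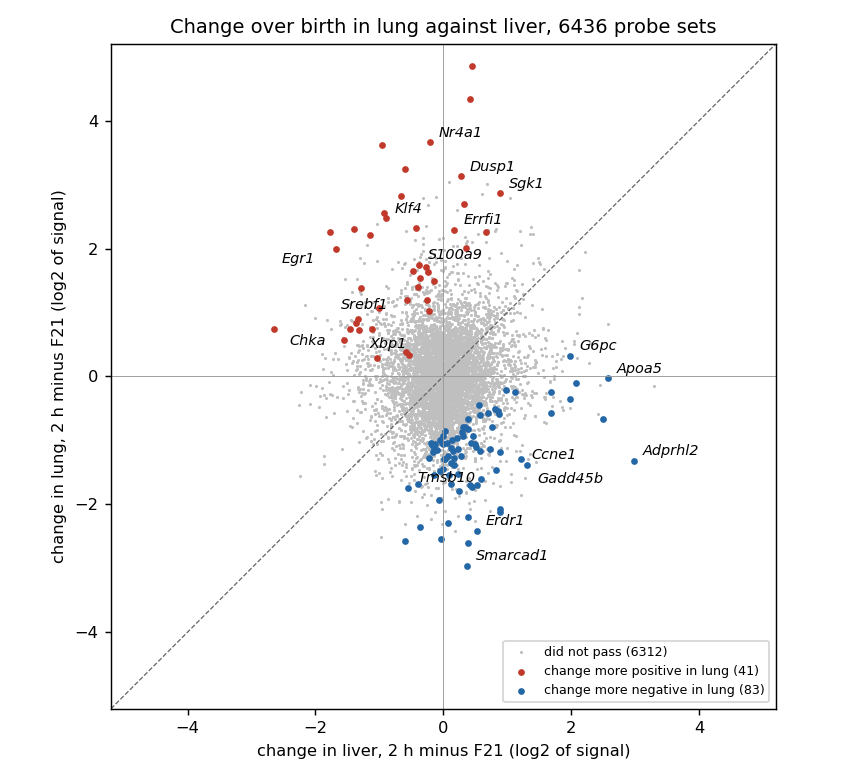
Change in lung (vertical axis) against change in liver (horizontal axis) from F21 to 2 h, in log2 of signal, for 6436 probe sets; a point on the dashed line changed equally in both organs. The 41 probe sets in red lie above the line and the 83 in blue below it, and most are displaced along the lung axis with little change in liver.

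Among regulators, the immediate early factors Klf4, Nr4a1 and Egr1, the feedback inhibitors Dusp1 and Errfi1 and the kinase Sgk1 were more positive in lung, and the immediate early gene Gadd45b was more negative. Of 39 immediate early genes tested, 3 were more positive in lung (7.69%), 1 was more negative (2.56%) and 35 did not pass. Of the 3, Nr4a1 was tested only because of its high signals in newborn lung. Of all genes 0.66% were more positive and 1.1% more negative. The median difference was 0.42 against -0.01 over all genes. In lung 9 of the 39 rose and 1 fell, where 3% and 5.6% of all genes did. Of 10 feedback inhibitors of growth factor signaling, 2 were more positive in lung, against 0.66% of all genes, and 8 did not pass.

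Regulatory sequence upstream of 3 of these genes is shown because it holds the exact letters of response elements, which were searched on both strands. The windows run from 250 bases before to 50 bases after the start of the RefSeq gene in build GRCm38.p6, and are written 5' to 3' along the gene with matches in capitals. Dusp1 is at chr17:26508423-26508722 on the minus strand, the second of 2 Errfi1 starts at chr4:150854820-150855119 on the plus strand and the fifth of 6 Sgk1 starts at chr10:21993640-21993939 on the plus strand.
Dusp1: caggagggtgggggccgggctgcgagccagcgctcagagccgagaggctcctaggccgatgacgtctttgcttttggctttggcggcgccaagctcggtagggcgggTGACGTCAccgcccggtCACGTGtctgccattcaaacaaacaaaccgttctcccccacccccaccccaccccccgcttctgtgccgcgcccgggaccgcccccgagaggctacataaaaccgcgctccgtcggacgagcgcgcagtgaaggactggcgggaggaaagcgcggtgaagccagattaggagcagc
Errfi1: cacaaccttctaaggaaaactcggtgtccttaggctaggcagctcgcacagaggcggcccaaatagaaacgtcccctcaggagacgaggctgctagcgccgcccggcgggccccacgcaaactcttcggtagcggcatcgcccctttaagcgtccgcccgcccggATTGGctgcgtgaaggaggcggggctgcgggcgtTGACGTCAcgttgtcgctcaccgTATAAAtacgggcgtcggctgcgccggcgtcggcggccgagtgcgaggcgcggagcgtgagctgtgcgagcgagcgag
Sgk1: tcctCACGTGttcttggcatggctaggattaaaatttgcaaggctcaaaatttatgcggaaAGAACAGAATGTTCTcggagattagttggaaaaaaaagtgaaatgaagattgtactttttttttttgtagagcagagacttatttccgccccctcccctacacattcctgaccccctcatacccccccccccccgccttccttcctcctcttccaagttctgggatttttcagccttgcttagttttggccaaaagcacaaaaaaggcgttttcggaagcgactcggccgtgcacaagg
Dusp1 and Errfi1 both hold the palindromic cyclic AMP response element (CRE) TGACGTCA, at 143 and 51 bases before the start. Dusp1 also holds the E-box CACGTG, and Errfi1 a TATA box TATAAA and, on the opposite strand, CCAAT. Sgk1 holds an E-box and the palindromic glucocorticoid response element (GRE), 189 bases before the start. Over the 37 promoter windows of the genes more positive in lung, 8.11% held the CRE, in Dusp1, Errfi1 and the tubulin gene Tubb2a, against 2.66% of the 5231 windows of all tested genes and 0 of 62 windows of the genes more negative in lung. The Sgk1 window was the only 1 of the 5231 with the GRE letters. These shares describe letters in a window and were not tested, and the single windows of Klf4 and Nr4a1 held neither element.

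Klf4, a zinc finger factor that restrains proliferation and drives epithelial differentiation, had signals of 77.0, 97.0 and 90.2 in F21 lung and 489.5, 479.8 and 491.6 at 2 h. In liver it had 21.0, 36.9 and 29.0 at F21 and 21.9, 15.9 and 8.2 at 2 h. The 3 newborn lungs were almost equal and far above the fetal ones, whereas the livers were near the floor and overlapped. The lung change was 2.47 ± 0.36 (SE), a 5.55-fold rise, the liver change -0.90 ± 0.36, and their difference 3.37 (95% interval 2.28 to 4.46, adjusted p = 0.00623). Klf4 passed in all 25 of the other fits that tested it.

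Nr4a1, an orphan nuclear receptor, had 17.6, 13.2 and 47.6 in F21 lung and 329.4, 460.8 and 147.4 at 2 h. In liver it had 22.7, 37.9 and 58.9 at F21 and 18.7, 79.0 and 21.9 at 2 h. The lung groups did not overlap and the liver groups did. Its difference of 3.88 ± 0.92 (adjusted p = 0.0457) rested on a lung rise of 3.66, but it passed in only 6 of 25 other fits, and the adjusted p ran from 0.0176 to 0.137.

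Egr1, a zinc finger factor induced by growth factors and stretch, had groups that lay in opposite order in the organs. Lung had 79.3, 19.3 and 89.3 at F21 and 148.7, 641.6 and 91.4 at 2 h. Liver had 297.2, 323.0 and 407.6 at F21 and 118.9, 129.1 and 77.4 at 2 h. All newborn lungs were above all fetal lungs, by a small margin for the lowest, and all newborn livers were below all fetal livers. Neither change passed alone (lung 2.00, adjusted p = 0.0642, liver -1.68, adjusted p = 0.317), while the difference of 3.68 ± 0.89 passed narrowly (adjusted p = 0.0495) and was lost in 20 of 27 other fits. Klf6, another immediate early zinc finger factor, had a difference of 2.37 ± 0.58 that missed the threshold (adjusted p = 0.0503). It had 123.1, 167.2 and 149.1 in F21 lung and 425.1, 824.9 and 348.3 at 2 h, and its livers overlapped.

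Dusp1, a phosphatase that switches off MAP kinases, had 189.2, 197.1 and 121.5 in F21 lung and 1251.4, 2430.7 and 997.1 at 2 h. In liver it had 82.2, 125.5 and 96.9 at F21 and 157.1, 115.7 and 96.8 at 2 h. It rose 8.75-fold in lung, with every newborn lung several times above every fetal lung, and the livers overlapped. The difference was 2.86 ± 0.45 (adjusted p = 0.00633), and it passed in all 27 other fits. Errfi1, an inhibitor of the EGF receptor, had 420.0, 365.8 and 362.5 in F21 lung and 1829.6, 1928.9 and 1853.7 at 2 h. In liver it was already at 1191.8, 1250.4 and 1068.9 at F21, with 1640.2, 920.8 and 1503.2 at 2 h. The newborn lung thus moved from below the liver level to above it, on the same probe set. The difference was 2.12 ± 0.26 (adjusted p = 0.00163), lost only in the fit of all 33 arrays. A probe set of Errfi1 of lower signal had 1.41 and did not pass. Dusp6, a phosphatase of ERK, had a difference of 1.83 that did not pass (adjusted p = 0.256), with overlapping lungs and lower newborn livers.

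Of 17 glucocorticoid response and clock genes 1 passed, where 0.66% of all genes tested were more positive in lung. This was Sgk1, a glucocorticoid-induced kinase that promotes absorption of sodium through epithelial channels. It had 92.1, 73.1 and 82.6 in F21 lung and 600.4, 512.5 and 703.5 at 2 h. In liver it had 68.5, 78.6 and 56.2 at F21 and 196.8, 103.0 and 92.9 at 2 h. Newborn arrays were above fetal arrays in both organs without overlap, and the lung change of 2.87 was larger than the liver change of 0.88 by 1.99 ± 0.40 (adjusted p = 0.022). The call was lost in 5 of 12 fits that left out an array, and in 6 of the 14 other settings. The clock gene Per1 had a difference of 1.55 (adjusted p = 0.27) and the clock output factor Tef -2.60 (adjusted p = 0.128), and neither passed, although each passed in lung (adjusted p = 0.0407 and 0.0227).

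Gadd45b, a stress-induced inhibitor of cell cycle progress, was the only immediate early gene tested that passed in the opposite direction. It had 150.8, 216.5 and 182.2 in F21 lung and 74.3, 47.3 and 95.2 at 2 h. In liver it had 50.7, 31.7 and 65.3 at F21 and 85.6, 101.0 and 183.3 at 2 h. Newborn lungs were all below fetal lungs and newborn livers all above fetal livers. The fetal lungs were all above the fetal livers, and at 2 h the organs overlapped. The difference was -2.69 ± 0.54 (adjusted p = 0.0206). This probe set is of a design that can read several members of a family, and another Gadd45b probe set gave -2.61 (adjusted p = 0.111).

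**Figure D2:**
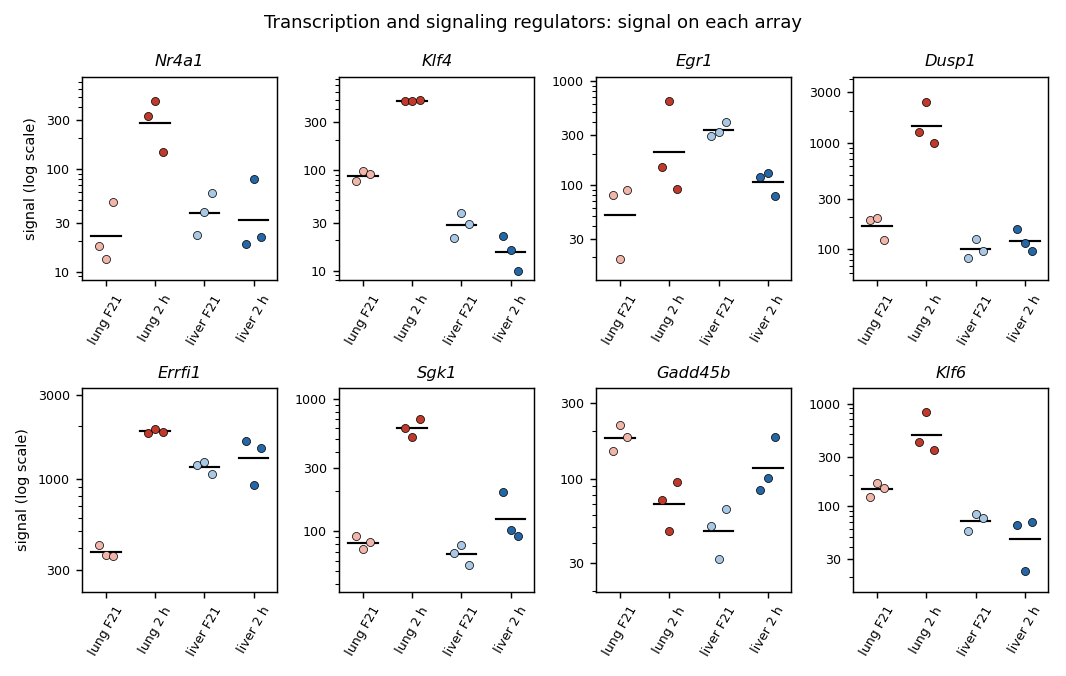
Signal (log scale) of 8 regulators on each of the 12 arrays, with values under 10 drawn at 10; points are arrays and bars are means of the log2 values of 3 arrays. In lung the 2 h arrays of Klf4, Dusp1, Errfi1 and Sgk1 stand far above those of F21, the groups of Egr1 and Gadd45b lie in opposite order in lung and liver, and Klf6 did not pass the test of the difference.

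Of 12 genes of gluconeogenesis and glycogen, 22 of fatty acid oxidation and 18 apolipoproteins and lipoprotein receptors, G6pc and Apoa5 passed the test of the difference, and both rose in liver. In these lists 2, 1 and 2 genes rose in liver, and 1 in each fell in lung. Of all genes tested, 0.34% rose in liver, 5.6% fell in lung and 1.1% had a more negative difference. G6pc, the glucose-6-phosphatase that releases glucose from liver, had 1055.0, 1295.6 and 1147.4 in F21 liver and 6336.5, 4070.3 and 3769.4 at 2 h. In lung it had 113.2, 110.4 and 92.8 at F21 and 119.1, 132.1 and 143.7 at 2 h. The liver rose 3.96-fold with no overlap, and the lung change of 1.25-fold did not pass (adjusted p = 0.346). The difference of -1.66 ± 0.27 (adjusted p = 0.00784) was the only 1 to pass among 12 genes of gluconeogenesis and glycogen. Pck1, the enzyme that commits carbon to glucose, had 194.7, 204.7 and 210.5 in F21 liver and 1034.0, 966.4 and 658.6 at 2 h. In lung it was at or near the floor of 10, from 4.1 to 23.2. It rose in liver (2.10, adjusted p = 0.0272), but its difference of -1.81 did not pass (adjusted p = 0.114). Tat, which starts the breakdown of tyrosine, had the same pattern, with 173.0 to 238.8 in F21 liver, 747.5 to 1266.7 at 2 h, and a difference of -2.07 (adjusted p = 0.0538). Tat had 10.1 to 21.0 in lung, so for both genes the lung values were too near the floor to measure a change. Of 20 genes of amino acid breakdown and the urea cycle and 22 of fatty acid oxidation none passed by limma. At an unadjusted p under 0.05, 0 and 2 of them were more positive in lung and 4 and 5 more negative, where 7.1% and 9.71% of all genes tested were.

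Apoa5, an apolipoprotein that lowers plasma triglyceride, had 303.0, 323.4 and 300.7 in F21 liver and 1311.7, 2133.0 and 2245.9 at 2 h. In lung it had 61.7, 48.2 and 76.3 at F21 and 31.8, 77.6 and 86.9 at 2 h. The liver rose 5.97-fold and the lung groups overlapped, for a difference of -2.61 ± 0.47 (adjusted p = 0.0131). The other 2 probe sets of Apoa5 gave -1.77 and -3.45, with adjusted p of 0.0771 and 0.0591. Slc25a47, a mitochondrial carrier of liver, rose from 492.4 to 661.2 at F21 to 1107.8 to 1545.1 at 2 h in liver and had overlapping groups in lung, with a difference of -1.36 (adjusted p = 0.0276). The call was lost in 5 of 12 fits that left out an array and in 6 of 15 other settings, with an adjusted p of up to 0.553. It was chosen after its values were seen, as were Chka, S100a8, Alas2, Hba-a1 and Rps10 below. Adprhl2, an enzyme that removes ADP-ribose from proteins, had the most negative difference among named genes, -4.30 ± 0.67 (adjusted p = 0.00633). In liver it went from 27.6, 23.0 and 13.6 to 142.1, 209.5 and 142.0, and in lung from 107.9, 34.6 and 92.6 to 24.7, 29.0 and 30.9. Its other probe set gave -0.42 (adjusted p = 0.85), so the probe sets disagree. The first probe set was tested only because of the newborn livers, where it was high, and its call says no more than these signals. Fgfr3, a receptor for fibroblast growth factors, had -3.17 ± 0.75 (adjusted p = 0.0457) on a probe set with 8.3, 7.8 and 56.8 in F21 liver and 104.3, 97.5 and 100.3 at 2 h. That call was lost in 11 of 12 fits that left out an array.

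The promoters of G6pc and Apoa5 are shown for comparison with those of the lung genes. G6pc is at chr11:101367466-101367765 and the first of 2 Apoa5 starts at chr9:46268358-46268657, both on the plus strand of GRCm38.p6.
G6pc: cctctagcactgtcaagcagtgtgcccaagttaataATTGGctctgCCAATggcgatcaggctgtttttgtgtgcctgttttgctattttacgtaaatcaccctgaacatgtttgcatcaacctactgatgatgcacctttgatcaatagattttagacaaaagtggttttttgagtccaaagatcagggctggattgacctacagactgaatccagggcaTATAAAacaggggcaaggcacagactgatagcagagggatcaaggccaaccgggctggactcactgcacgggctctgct
Apoa5: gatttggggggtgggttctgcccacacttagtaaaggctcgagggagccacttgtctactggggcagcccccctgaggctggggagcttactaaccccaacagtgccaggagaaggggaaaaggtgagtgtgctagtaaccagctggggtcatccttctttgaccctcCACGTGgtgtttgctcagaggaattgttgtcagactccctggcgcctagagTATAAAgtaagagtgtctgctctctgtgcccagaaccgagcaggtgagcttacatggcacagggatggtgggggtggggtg
Capitals mark in G6pc a TATA box and 2 CCAAT boxes, 1 of them on the opposite strand, and in Apoa5 an E-box and a TATA box. TATAAA stood in 24.3% of the windows of genes more positive in lung and 17.7% of those more negative, against 8.66% of all windows, and CACGTG in 8.11%, 16.1% and 9.85%.

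Other genes were lower in newborn liver and higher in newborn lung. Srebf1, the transcription factor that drives fatty acid synthesis, had 720.1, 657.5 and 806.1 in F21 liver and 510.8, 211.2 and 204.0 at 2 h. In lung it had 407.5, 470.9 and 282.5 at F21 and 824.0, 643.6 and 577.0 at 2 h. The groups did not overlap in either organ and lay in opposite order, with a difference of 2.20 ± 0.43 (adjusted p = 0.0173), although neither change passed alone. Chka, a kinase of phosphatidylcholine synthesis, had 202.0, 283.1 and 225.9 in F21 liver and 104.0, 71.9 and 68.2 at 2 h. In lung it had 141.5, 107.9 and 108.0 at F21 and 157.9, 203.6 and 167.7 at 2 h. It fell in liver (-1.55, adjusted p = 0.00828), and its difference of 2.12 ± 0.35 (adjusted p = 0.00784) passed in all 27 other fits. Among the 21 lipid synthesis genes (cholesterol and fatty acids), Srebf1 alone passed, where 0.66% of all genes tested were more positive in lung. The median change of the 21 was -0.97 in liver and -0.29 in lung. The elongase Elovl6 and the desaturase Scd2 had differences of 2.49 and 1.72 that did not pass (adjusted p = 0.137 and 0.228). The liver array of 2 h numbered 1 had the highest signal of its group for Srebf1, Chka, Scd2 and Elovl6, and also for G6pc and Pck1. Without it 87 probe sets changed in liver in place of 38.

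Xbp1, a transcription factor of the unfolded protein response, also had groups in opposite order. It had 175.5, 246.7 and 226.4 in F21 liver and 76.8, 82.0 and 100.3 at 2 h. In lung it had 106.0, 156.0 and 138.6 at F21 and 236.9, 231.8 and 188.2 at 2 h. It fell in liver (-1.32, adjusted p = 0.0228), its lung change did not pass (0.72, adjusted p = 0.0711), and the difference of 2.04 ± 0.33 (adjusted p = 0.00784) passed in all 27 other fits. Herpud1, which takes part in the disposal of misfolded proteins of the endoplasmic reticulum, rose in lung (1.03, adjusted p = 0.00628) and had a difference of 1.25 ± 0.28 (adjusted p = 0.0363), which was lost in 9 of 12 fits that left out an array. These were the 2 of 38 chaperone genes that passed, where 0.66% of all genes tested were more positive in lung. The chaperone Hsph1 fell in liver alone (-1.31, adjusted p = 0.0321), with a difference of 1.38 that did not pass (adjusted p = 0.0662).

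**Figure D3:**
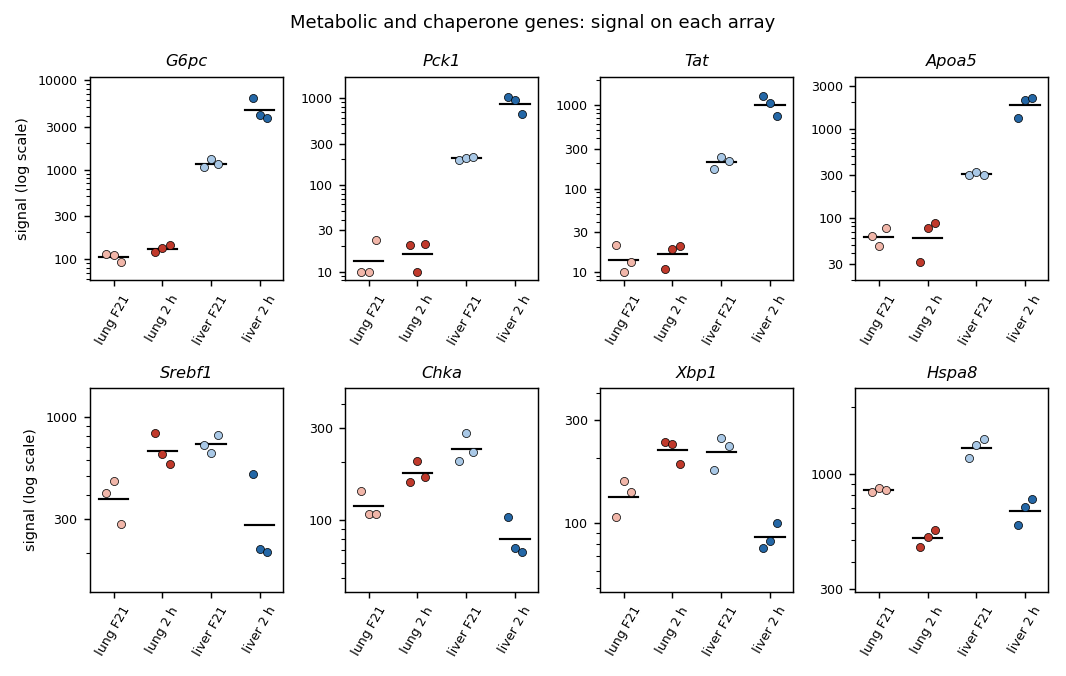
Signal (log scale) of 8 metabolic and chaperone genes on each of the 12 arrays, with values under 10 drawn at 10; points are arrays and bars are means of the log2 values of 3 arrays. G6pc, Pck1, Tat and Apoa5 stand well above F21 at 2 h in liver, the groups of Srebf1, Chka and Xbp1 lie in opposite order in the organs, and Hspa8 falls in both organs.

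Only 26 genes passed in liver, which limits how many changes could be shared. Of the 430 genes past the test in lung and the 26 in liver, 5 passed in both, all in the same direction. They were 1.16% of the lung genes and 19.2% of the liver genes. Over all 5003 genes tested, 3% rose and 5.6% fell in lung, and 0.34% rose and 0.18% fell in liver. Slc25a25, a calcium-dependent carrier of mitochondrial ATP, rose in lung from 28.4, 40.6 and 141.2 to 212.8, 211.0 and 205.8 and in liver from 189.3, 143.1 and 125.9 to 957.4, 654.4 and 544.2. Its liver call was lost in 8 of 12 fits that left out an array and in 5 of 15 other settings. Retreg1, a receptor for autophagy of the endoplasmic reticulum, rose 3.43-fold in lung and 2.65-fold in liver. Hspa8, the constitutive heat shock cognate protein, fell in lung from 829.9, 859.0 and 843.0 to 467.9, 518.7 and 556.7 and in liver from 1175.8, 1342.4 and 1428.5 to 583.0, 704.6 and 764.6. Fkbp4, a co-chaperone of steroid receptors, fell by 0.91 in lung and by 0.92 in liver on the log2 scale, on a probe set that can read a family. Another probe set of it, designed without all selection rules, gave 0.77 in lung, -0.44 in liver and a difference of 1.21 (adjusted p = 0.225), and the liver call was lost in 5 of 12 fits that left out an array and in 5 of 14 other settings. The protease inhibitor A2m fell in both, from a level in lung of 30.7 to 44.6 against 3772.5 to 4217.3 in liver, and its lung call (adjusted p = 0.0498) was lost in 21 of 26 other fits. The differences between organs of the 5 genes ran from -0.27 to 0.68 with adjusted p of 0.3 or more. The 95% interval was -0.21 to 0.67 for Hspa8, so a difference of 1 on the log2 scale lay outside it, whereas for Slc25a25 it ran from -1.59 to 1.05.

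Several genes of cell division were more negative in lung. Of 42 genes of the cell cycle and DNA replication 3 were more negative in lung (7.14%), none was more positive and 39 did not pass. Of all genes tested 1.1% were more negative and 0.66% more positive. The list median was -0.38 in lung and 0.23 in liver. Cdk1, the kinase that drives mitosis, had 160.8, 227.7 and 277.7 in F21 lung and 89.1, 97.4 and 66.3 at 2 h, and overlapping values of 262.7 to 343.8 in liver. Its difference was -1.55 ± 0.33 (adjusted p = 0.0276), lost in 9 of 12 fits that left out an array. Ccnb2, a cyclin of mitosis, had 405.0, 389.9 and 542.6 in F21 lung and 298.6, 180.0 and 308.4 at 2 h. In liver it had 561.4, 591.6 and 600.2 at F21 and 958.3, 1063.7 and 960.4 at 2 h. Newborn lungs were below and newborn livers above their fetal groups, with a difference of -1.56 ± 0.29 (adjusted p = 0.0146) that held in all 12 fits that left out an array. Ccne1, the cyclin of entry into S phase, had -2.50 ± 0.59 (adjusted p = 0.0457), and this call was lost in 11 of 12 fits that left out an array. Outside the list, Cdca8, a part of the chromosomal passenger complex, had 99.2 to 143.1 in F21 lung and 28.3 to 56.4 at 2 h. Its difference was -2.19 ± 0.41 (adjusted p = 0.0154). With quantile normalization the list medians were -0.42 in lung and 0.19 in liver, and again 3 were more negative.

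Ribosomal protein genes had a median difference of -0.71, close to that of the cell cycle list (-0.70), with -0.75 in lung and -0.06 in liver. Of all genes tested 5.6% fell in lung and 1.1% were more negative. Of the 24 ribosomal protein genes tested, 16 fell in lung, 5 were more negative in lung (20.8%) and none was more positive. These are among the brightest transcripts of the array, where the lung arrays of 2 h were low, and with quantile normalization the median difference was -0.27, against -0.70 for the cell cycle list, the median in lung was -0.24, 5 fell and 1 rose in lung, and 1 was more negative. Rpl19 kept its call, with 5837.1, 6968.8 and 7260.9 in F21 lung, 3462.5, 3570.9 and 2773.5 at 2 h and 4405.3 to 5099.3 in liver, a difference of -1.01 ± 0.20 (adjusted p = 0.0215) and -0.76 after quantile normalization (adjusted p = 0.0287). Rps28, Rps24, Rpl41 and Rps10, with differences of -1.09, -1.18, -0.92 and -0.89, did not pass after it, and Rpl41 changed sign to 0.17. Their adjusted p were 0.022, 0.0398, 0.0425 and 0.0457 before it. The Rps28 and Rpl41 probe sets can read a family and the Rps24 probe set was designed without all selection rules. Other probe sets gave differences of 2.26 and -0.68 for Rps28 (adjusted p = 0.218 and 0.108) and -0.27 for Rpl19 (adjusted p = 0.919). The part of the low bright signals in these falls was not tested otherwise. Of 53 genes of oxidative phosphorylation 15 fell in lung and none in liver, against 5.6% and 0.18% of all genes tested. None passed the test of the difference. At an unadjusted p under 0.05, 9 were more negative and 3 more positive, against 9.71% and 7.1% of all genes tested. With quantile normalization 14 fell in lung, against 251 of all 5003 genes, and 1 was more negative. The median in lung was -0.45 before it and -0.47 after it.

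With quantile normalization 13 of the brightest probe sets were more positive in lung and 32 more negative, against 7 and 42 before it. Over all 6436 probe sets it gave 46 and 75. Errfi1, S100a8, S100a9, G6pc, Ccnb2 and Srebf1 kept their calls (limma, adjusted p = 1.98e-04, 8.89e-04, 0.00126, 0.0183, 0.0192 and 0.0196). Other single bright transcripts that kept theirs included Tmsb10, Srsf2 and Erdr1. Tmsb10, a thymosin that binds actin monomers, fell in lung from 5212.1, 5028.4 and 5151.4 to 1640.2, 1678.4 and 1308.7, and had 2247.0, 2406.2 and 2332.9 in F21 liver and 1667.7, 1424.7 and 1685.9 at 2 h. It was lower after birth in both organs without overlap, and the lung change was the larger by -1.19 ± 0.19 (adjusted p = 0.00727, and 0.0251 after quantile normalization). Srsf2, a splicing factor, had -1.52 ± 0.25 (adjusted p = 0.00784), but another probe set of it gave -0.04 (adjusted p = 0.982). Erdr1, a stress-related transcript read by a family probe set, fell from 2465.3 to 2644.0 in F21 lung to 433.1 to 559.5 at 2 h, with overlapping livers and a difference of -2.93 ± 0.29 (adjusted p = 4.30e-04), while another probe set gave -2.05 (adjusted p = 0.137). After quantile normalization the first probe set gave -3.075 (adjusted p = 1.98e-04). Smarcad1, a chromatin remodeler, fell from 64.4 to 115.8 in F21 lung to 6.6 to 11.6 at 2 h, around the floor, and had -3.33 ± 0.60 (adjusted p = 0.0126). The cytoskeletal Actb fell in lung (-1.67, adjusted p = 0.0265), and its difference of -2.09 did not pass (adjusted p = 0.0909).

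**Figure D4:**
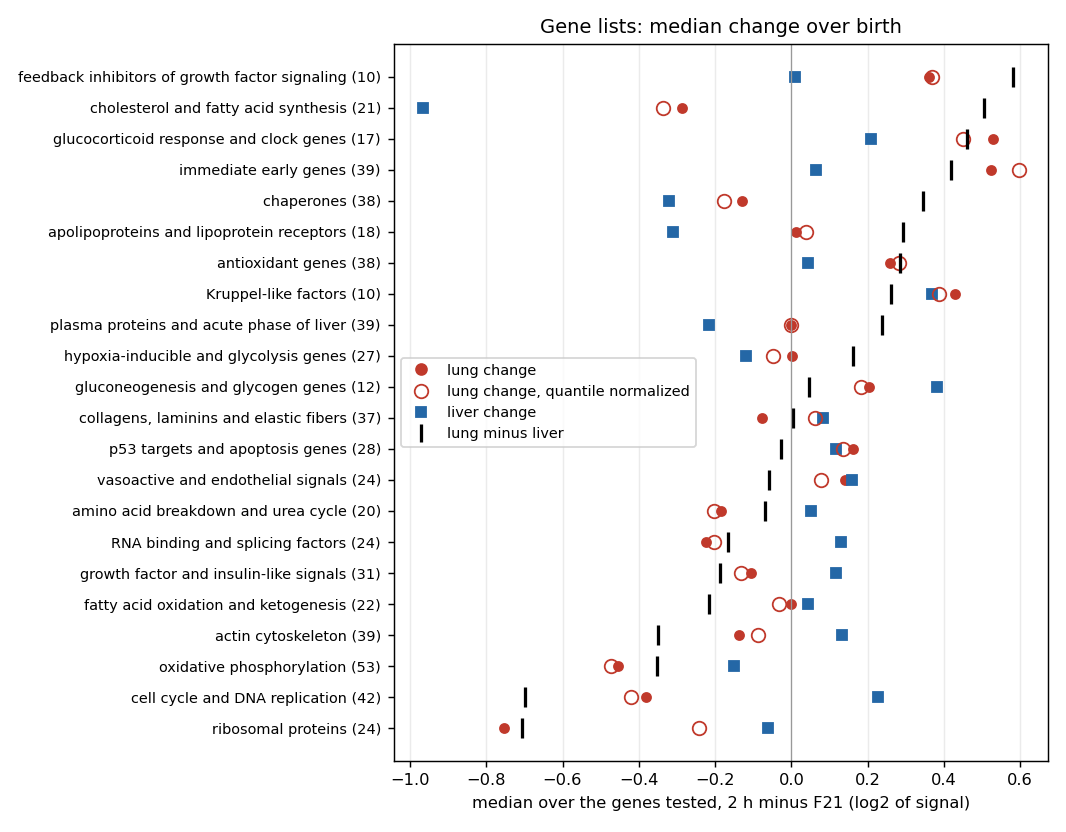
Median change from F21 to 2 h of the tested genes of each list (number in parentheses), in log2 of signal: filled circles for lung, squares for liver, open circles for lung after quantile normalization and vertical ticks for the median difference between organs. The ribosomal protein list moves most between the scalings, from -0.75 to -0.24 in lung, and the synthesis of cholesterol and fatty acids has the lowest liver median, -0.97.

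S100a8 and S100a9, which together form calprotectin of neutrophils, rose in lung and had lower values in newborn liver. S100a9 had 78.4, 50.7 and 61.5 in F21 lung and 193.1, 219.4 and 219.7 at 2 h, against 3401.3, 3180.6 and 3592.8 in F21 liver and 2946.6, 2516.0 and 2402.2 at 2 h. S100a8 had 139.5, 173.8 and 120.8 in F21 lung and 350.0, 539.7 and 475.3 at 2 h, against 8448.4, 8217.6 and 7773.2 in F21 liver and 5830.8, 6066.8 and 5670.2 at 2 h. None of the groups overlapped, in either organ. The differences were 2.13 ± 0.24 for S100a9 and 2.12 ± 0.24 for S100a8 (adjusted p = 7.98e-04 for each), and both passed in all 27 other fits. They were the 2 of 11 tested markers of neutrophils and their precursors that passed, where 0.66% of all genes tested were more positive in lung. Counting these 2, the differences were positive for 8 of the 11 and negative for 3, with a median of 0.815. At an unadjusted p under 0.05, 5 were more positive and 1 more negative, against 7.1% and 9.71% of all genes tested. The summed signal of the 13 markers on the array was 904.6 to 1400.7 in F21 lung and 1514.6 to 2146.3 at 2 h, and 21218 to 23226 in F21 liver and 16844 to 18937 at 2 h. Without S100a8 and S100a9 the other 11 summed to 722.3 to 1176.2 in F21 lung and 915.6 to 1387.2 at 2 h, which overlapped. Mpo and Elane, which mark granulocyte precursors, did not pass (-1.44 and 0.48, adjusted p = 0.184 and 0.503), and Mpo was at 4.8 to 8.0 in newborn lung.

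Of 13 tested markers of red cell precursors 2 were more negative in lung, against 1.1% of all genes tested. The list median was -1.04, and -0.46 after quantile normalization. The summed signal of the 14 markers on the array was 33804 to 39062 in F21 lung, 16967 to 21450 at 2 h and 50296 to 60007 in liver, most of it Hba-a1. Without Hba-a1 it was 2831.9 to 2950.1 in F21 lung and 2382.7 to 2623.8 at 2 h, and 10322 to 11318 in F21 liver and 12710 to 15451 at 2 h. Alas2, the enzyme that starts heme synthesis in erythroid cells, had 549.3, 603.7 and 636.8 in F21 lung and 411.3, 320.7 and 453.1 at 2 h, and 1514.7, 1411.3 and 1285.4 in F21 liver and 2335.5, 2000.2 and 1934.2 at 2 h. Its groups lay in opposite order in lung and liver without overlap, and its difference of -1.18 ± 0.22 (adjusted p = 0.015) was -1.14 after quantile normalization (adjusted p = 0.0231). Hba-a1, an alpha globin, had -1.05 ± 0.25 (adjusted p = 0.044) and 30854 to 36230 in F21 lung against 14483 to 18826 at 2 h, near the highest signal of those arrays. After quantile normalization its difference was 0.11 and did not pass. That scaling gives each rank the same value on every array. It can hardly show a change in a transcript near the top of all of them. The estimate for alpha globin thus depends on the scaling. The beta globin Hbb-b2, chosen after its values were seen, had -1.01 ± 0.23 (limma, adjusted p = 0.0402). Its groups lay in opposite order in the organs without overlap. The globin genes Hba-x and Hbb-y had 1.16 and 0.57 and did not pass.

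Some transcripts of liver or of glands rose in lung at low levels. Itih3, a plasma protein made by hepatocytes, had 12.5, 9.5 and 6.6 in F21 lung and 30.2, 23.8 and 38.2 at 2 h, against 5635.9 to 7103.7 in liver, with a difference of 1.64 ± 0.27 (adjusted p = 0.00786). Afp, the alpha-fetoprotein, rose in lung (1.84, adjusted p = 0.012) from 9.3 to 22.5 to 29.0 to 77.0, and its difference did not pass (adjusted p = 0.0717). The hepatocyte markers Apoa1 and Ahsg stayed at 9.2 to 18.5 in all lung arrays, and the summed signal of the 10 hepatocyte markers in lung ranged over 179.0 to 236.0 before birth and 165.6 to 389.0 after it. Cyp2c39, a cytochrome P450, had 32.6, 90.3 and 55.1 in F21 lung and 313.4, 302.5 and 215.3 at 2 h, with overlapping livers and a difference of 2.75 ± 0.48 (adjusted p = 0.011). A4galt, a glycolipid synthase, had a difference of 4.58 ± 0.90 (adjusted p = 0.0197). It had 72.3, 19.2 and 14.6 in F21 lung, 362.5, 306.3 and 338.0 at 2 h, and 5.1 to 51.6 in liver. It lay in the top 40% of signals on 3 newborn lung arrays and 1 F21 lung array. It was thus tested only because of the newborn lungs, where it was high, and its call says no more than these signals. Its probe set and that of Ctrl, a chymotrypsin-like protease of the pancreas, were designed without all of the usual selection rules. Ctrl had 12.1, 7.6 and 10.2 in F21 lung and 275.0, 357.5 and 306.7 at 2 h, and 17.1 to 39.5 in liver. It entered the test only through the newborn lungs, where it was high, so it had to differ, and its call says no more than these signals. Of the other acinar markers, Ctrb1 rose in lung (1.39, adjusted p = 0.0213), from 143.9, 118.8 and 221.4 to 412.7, 288.2 and 576.7, with a difference that did not pass (1.66, adjusted p = 0.094), and Prss2 was at 9.2 to 13.3 in newborn lung. The 9 acinar markers on the array summed to 765.2 to 883.4 in F21 lung and 1298.0 to 1646.9 at 2 h, and without Ctrl and Ctrb1 to 638.8 to 678.3 and 652.3 to 763.5, which overlapped. Gstm2, a glutathione transferase, was the only 1 of 38 antioxidant genes that passed, where 0.66% of all genes tested were more positive in lung. Its difference was 1.77 ± 0.39 (adjusted p = 0.0328) on a probe set of the same kind, while another gave 0.66 (adjusted p = 0.706). The call was lost in 7 of 12 fits that left out an array and in 7 of 14 other settings.

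Genes of the study's own interest other than Klf4 did not pass the test of the difference. Cdkn1a, an inhibitor of cyclin-dependent kinases, rose 2.84-fold in lung (adjusted p = 0.0111), from 93.9, 141.7 and 85.5 to 259.2, 271.6 and 368.8, with overlapping livers, and its difference was 1.27 (95% interval 0.30 to 2.25, adjusted p = 0.169). Another probe set of Cdkn1a gave 1.45 in lung, 1.23 in liver and a difference of 0.22 (adjusted p = 0.887). The matrix genes Fn1 and Col1a1 had 0.16 (95% interval -0.40 to 0.71) and -0.84 (-1.38 to -0.30), with adjusted p of 0.81 and 0.111. Klf5, Acta2, Itgb1 and Pcna had -0.77, -0.64, -0.37 and -0.21, with adjusted p from 0.678 to 0.798. Another probe set of Itgb1 gave 0.91 (adjusted p = 0.119). The intervals of Klf5 and Acta2, -2.50 to 0.96 and -2.69 to 1.41, were wide enough to hold changes of several fold. Of 28 p53 targets and apoptosis genes and of 37 genes of collagens, laminins and elastic fibers none passed by limma, with 2 and 1 more positive and 1 and 6 more negative at an unadjusted p under 0.05, against 7.1% and 9.71% of all genes tested.

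Of 7 tested markers of alveolar type 2 cells, 6 of type 1 cells and 6 of airway epithelium, none passed the test of the difference. Their median differences were -0.114, -0.715 and 0.644. At an unadjusted p under 0.05 (limma), 1, 1 and 2 were more positive and 2, 3 and 0 more negative. Of all genes tested 7.1% and 9.71% were. Among the type 1 markers 2 fell and 1 rose in lung, against 5.6% and 3% of all genes tested. Scgb1a1, the secretoglobin of airway club cells, rose in lung (1.63, adjusted p = 0.018) from 2730.7, 2743.8 and 798.2 to 4887.9, 7547.2 and 4833.0, and was at 6.1 to 13.1 in liver, where no change can be measured. Its difference was 1.503 (adjusted p = 0.169). Sftpc, whose signal was the highest on every lung array, had a lung change of -1.33 (adjusted p = 0.0082) and a difference of -1.52 (adjusted p = 0.0591). After quantile normalization, which sets the highest signal of every array to 1 value, these were 0.00 and -0.23 and neither passed (adjusted p = 1 and 0.827).

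Arrays outside the 12 gave further values of the lung change. In lungs of 10% oxygen, on 3 arrays of F21 and 3 of 2 h that the comparison did not use, 51 of the 68 genes that passed the test of the difference and changed in lung had a change of the same sign (75%), against 315 of 430 genes past the test in room air lung (73.3%) and 57% of all 5003 genes. Dusp1 changed by 2.68 there (adjusted p = 3.21e-04) and S100a8 by 1.18 (adjusted p = 0.00533). Egr1 changed by 2.87 (adjusted p = 0.015) and Ccnb2 by -1.83 (adjusted p = 2.22e-05). Cdk1, Tmsb10, Srsf2 and Erdr1 also passed, each with a fall. Klf4 changed by 1.03 and did not pass (adjusted p = 0.26). Errfi1 (1.42, adjusted p = 0.0709) and Sgk1 (1.40, adjusted p = 0.107) did not pass either. Nor did S100a9 (0.87, adjusted p = 0.194) or Nr4a1 (0.84, adjusted p = 0.603). Alas2 and Hba-a1, which fell in room air, changed by 0.94 and 0.61 and did not pass (adjusted p = 0.0651 and 0.183). The difference between room air and 10% oxygen was not tested. At 6 h in room air, against the same F21 arrays, S100a8 was 3.04 above F21 in lung (adjusted p = 2.00e-09) and Dusp1 2.45 above it (adjusted p = 0.00153), and in liver G6pc was 1.55 above F21 (adjusted p = 6.63e-04), Apoa5 2.96 above it (adjusted p = 0.00899) and Srebf1 fell by 2.04 (adjusted p = 6.63e-04). The ribosomal Rpl19 was at -0.09 in lung at 6 h and at -0.13 in lungs of 10% oxygen at 2 h, and neither passed.

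**Figure D5:**
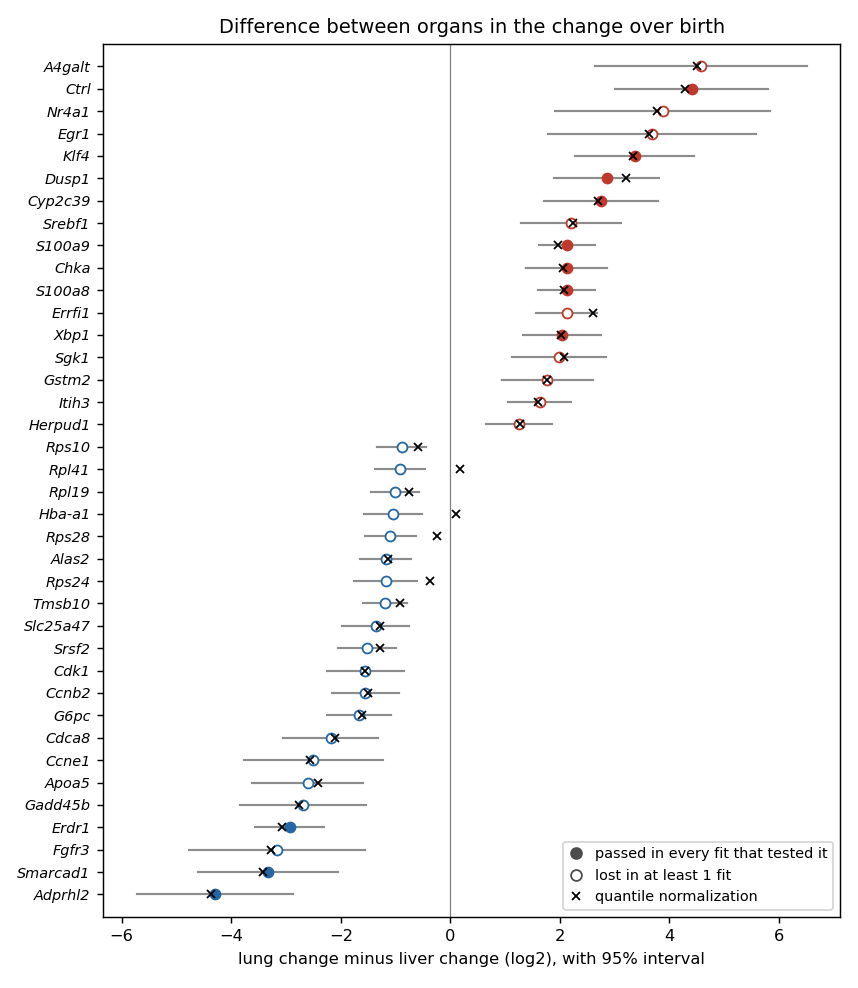
Difference between organs (lung change minus liver change, log2) for the 38 genes described here that passed, with 95% intervals from limma; filled points passed in every fit that tested them, open points were lost in at least 1, and crosses give the estimate after quantile normalization. The crosses of Rpl41 and Hba-a1 lie on the other side of 0, those of Rps28 and Rps24 lie outside their intervals, and the other crosses lie within theirs.

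The test named in the study's methods, a two-sample comparison of 2 h with F21 in each organ at an unadjusted p under 0.01, called 431 probe sets in lung and 181 in liver, where about 64.2 and 64.4 would be expected by chance. The lists shared 10 probe sets, 2.32% of the lung list and 5.52% of the liver list. After Benjamini-Hochberg adjustment 15 and 0 remained at an adjusted p under 0.05, where limma, which shares information on the spread among probe sets, called 566 and 38. Presence in 1 list and absence from the other is not a test of the difference between organs, for which the counts above stand.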

How the data were processed

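Total RNA of whole organs was hybridised to oligonucleotide arrays of 1 colour. The deposited values are linear signal intensities, which the authors computed from the probe sets of each array and scaled to a target of 100. Here the log2 of each signal was used, with a floor of 10. Probe sets were tested if they lay in the top 40% of an array on at least 3 of the 12 arrays, and 66 control probe sets were left out. Of all probe sets 10855 carried 1 gene symbol, 396 several and 1237 none, and the probe set with the highest mean stood for a gene. The 4 groups were fitted with limma 3.58.1 in R 4.3.3 (mean-variance trend, Benjamini-Hochberg adjustment, threshold 0.05), and the procedure was tested on simulated data. Only 3 arrays per group limit the precision. Genes were named by rule: the 15 largest differences in each direction without overlap in at least 1 organ, up to 4 genes per list with the smallest p, genes past the test in both organs, and genes of the study. Not all of these are described. Those left out include Olfr93, Pla2g4f, Esrp2, Slc23a3, Tmem129 and Akr1c6, more positive in lung. They also include Amacr, 1110032A03Rik, Sac3d1, Yipf4, Hat1, Nup85 and Dctpp1, more negative in lung. The counts over 38 named genes cover only genes that are described. The comparison, the lists and the members were chosen with earlier results of these data known.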

Additional observations from a re-analysis of the deposited data

Results flagged for a closer look

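The results below stand out because the change at birth differed between lung and liver by the test of that difference; each value is the lung change minus the liver change on the log2 scale.

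Among regulators the difference was 3.88 for Nr4a1, 3.68 for Egr1, 3.37 for Klf4, 2.86 for Dusp1, 2.12 for Errfi1, 1.99 for Sgk1 and -2.69 for Gadd45b. Among genes of metabolism and protein folding it was 2.20 for Srebf1, 2.12 for Chka, 2.04 for Xbp1, 1.25 for Herpud1, -1.66 for G6pc, -2.61 for Apoa5 and -1.36 for Slc25a47. It was -4.30 for Adprhl2 and -3.17 for Fgfr3.

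Among transcripts of blood cells it was 2.12 for S100a8, 2.13 for S100a9, -1.18 for Alas2 and -1.05 for Hba-a1. Among genes of cell division it was -1.55 for Cdk1, -1.56 for Ccnb2, -2.50 for Ccne1 and -2.19 for Cdca8. For ribosomal proteins it was -1.01 for Rpl19, -1.09 for Rps28, -1.18 for Rps24, -0.92 for Rpl41 and -0.89 for Rps10.

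The other values were -1.19 for Tmsb10, -1.52 for Srsf2, -3.33 for Smarcad1, -2.93 for Erdr1, 4.41 for Ctrl, 4.58 for A4galt, 2.75 for Cyp2c39, 1.77 for Gstm2 and 1.64 for Itih3. The value of Ctrl is set against background and comes from a gene that was tested only because of its high signal in newborn lung. Nr4a1 and A4galt were also tested only because of their high signals in newborn lung, Adprhl2 because of those in newborn liver, and Smarcad1 because of those in F21 lung.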

How the results depend on the processing

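The number of probe sets whose change differed between organs was 124, and it was 77 with no filter, 72 with all 33 arrays in the fit, 234 with array weights, 52 with the Gapdh ratio as a covariate, 44 without the mean-variance trend and 41 with quantile normalization and no trend. The number changed in lung was 566, and under these settings it was 364 with no filter, 963 with array weights, 282 with the Gapdh ratio, 318 without the trend and 286 with quantile normalization and no trend. The number changed in liver was 38, and it was 20 with a filter on the median rank, 21 with a filter in each organ and 16 with all 33 arrays. Leaving out an array gave 57 (without the second liver array of 2 h) to 167 (without the first) for the difference, 258 (without the third lung array of 2 h) to 566 for lung, and 17 (without the second liver array of 2 h) to 87 (without the first) for liver. The methods' t-test after Benjamini-Hochberg adjustment gave 15 in lung and 0 in liver, where 181 had an unadjusted p under 0.01.

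With the replicate number as a block the counts were 108, 458 and 26 for the difference, lung and liver. The numbers did not pair the arrays, since the correlation of deviations of arrays of 1 number ran from -0.135 to 0.0201. Quantile normalization gave 121 calls of the difference, 104 of them shared with the 124. Quantile normalization without the trend was added after seeing the data, as was a restriction to probe sets of plain or g suffix, which gave 86.

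The sign of the difference changed for Hba-a1 (0.109), Rpl41 (0.174) and Itgb1 (0.091) under both forms of quantile normalization, and for Pcna with array weights (0.07). Leaving out an array gave -1.32 to 0.131 for Klf5, -1.63 to 0.232 for Acta2 and -0.391 to 0.024 for Pcna. The cause of these changes was not tested. Of the 38 genes described here that passed the test, 19 passed whichever array was left out. The genes that passed in every fit that tested them were Klf4, Dusp1, Chka, Xbp1, Adprhl2, S100a8, S100a9, Smarcad1, Erdr1, Cyp2c39 and Ctrl, of which Ctrl was tested in only 9 of the 12 fits that left out an array. Of these, Adprhl2, Smarcad1 and Ctrl entered the main test only through a group where they were high. With 3 arrays per group the median SE of the difference was 0.46, and signals near the floor of 10 bound what could be measured in the organ that lacks a transcript.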
